A study of Rattus norvegicus with 6 samples.

Results

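The natural killer receptor complex genes examined here are 10 genes for lectin-like receptors of natural killer cells that lie together on rat chromosome 4. They are Klre1, Klrd1, Klrk1, Klrc3, Ly49i9, Ly49s6, Ly49i4, Ly49i3, Ly49i2 and Klra2, of 26456 gene names on the array. They were chosen by name with their measured log2 differences between the strains in view, so these differences are given below as a description, without a test. They are measured by 12 of the 30367 probes, 2 each for Klrk1 and Ly49i4. All 12 probes passed the filter on low signal, which asks that 1 strain or both have a well measured signal on each of its 3 arrays. Of these, 8 were well above background on all 6 arrays, 3 were dim on all 3 OLETF arrays, and the second Ly49i4 probe was dim on 1 of them. The last 4 passed through LETO alone.

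Total RNA from the left ventricle of male rats was hybridised to 1-colour Agilent arrays, 1 array per rat. The diabetic group was 3 rats of the OLETF strain, which becomes obese and develops type 2 diabetes, aged 27, 28 and 27 weeks. The control group was 3 rats of the LETO strain, labelled as healthy controls, aged 27, 28 and 28 weeks. No drug, diet or transgene is named for either group, and strain and diabetes cannot be told apart in this design. Between 75.55% and 79.8% of the spots on an array were well above background and none was saturated. Precision is limited by the number of arrays. The LETO arrays shared a slide with OLETF 1, whereas the other two OLETF arrays were on a second slide, so slide and strain were partly mixed. All 10 cardiomyocyte markers were measured in the tissue and 0 of them passed the test between the strains (limma, 0 also at an unadjusted p below 0.05). The labels speak of independent experiments, and p-values here measure only the spread between these samples.

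Natural killer cells are lymphocytes that kill infected or altered cells and are held in check by receptors that read class I molecules of the major histocompatibility complex. In rodents much of this reading is done by the Ly49 family. Its inhibitory members carry a motif that recruits the phosphatase encoded by Ptpn6, and its stimulatory members signal through the adaptor encoded by Tyrobp. The same chromosomal complex holds Klrd1, which encodes CD94, the chain that pairs with the NKG2 proteins of the Klrc genes. It also holds Klre1, whose product pairs with those of Klri1 or Klri2, and Klrk1, which encodes the activating receptor NKG2D. The Ly49 genes are close relatives in sequence and differ between inbred strains. In the heart these receptors are known from the few resident and circulating lymphocytes. In bulk tissue, fewer such cells and less RNA per cell cannot be told apart. Whether each probe matches the sequence carried by each strain was not tested, so the values below describe the signal of a probe.

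The deposited 60-base probes printed first show what the array actually measured for the genes that stood higher in OLETF (Klre1 and Klrc3), for an inhibitory gene that was dim on every OLETF array (Ly49i3), and for Klrd1 and Klrk1, whose products partner or parallel them. In the Klrk1 probe the capitals mark the stop codon with which it ends.
Klre1: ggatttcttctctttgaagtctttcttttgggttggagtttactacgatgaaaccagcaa
Klrc3: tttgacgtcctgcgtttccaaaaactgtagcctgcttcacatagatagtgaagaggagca
Klrd1: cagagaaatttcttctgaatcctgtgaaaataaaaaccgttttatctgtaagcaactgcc
Klrk1: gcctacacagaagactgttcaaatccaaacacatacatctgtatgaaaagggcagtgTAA
Ly49i3: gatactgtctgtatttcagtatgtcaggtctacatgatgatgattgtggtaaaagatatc

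Because Ly49 transcripts resemble each other, every pair of 44 probes of the complex was compared. Among the 66 pairs of member probes the longest shared run was 9 bases. A short run does not show how many positions of 2 probes match in all, so near relatives are not excluded by it. A member and another gene of the complex did share longer runs in 2 cases. The probes of Ly49i4 and Ly49s3 share a run of 48 bases and match at 50 of 53 positions at the best offset. Those of Ly49s6 and Ly49s5 share a run of 28 bases and match at 46 of 55 positions. The stretches below are where each shared run ends, with the bases of the run in capitals and the bases after it in lower case. Some bases after the run of Ly49i4 and Ly49s3 also match at the same position. The Ly49s5 probe ends with the run.
Ly49i4: GTGGGTTTTCATGTATTGGTTAGTTgctat
Ly49s3: GTGGGTTTTCATGTATTGGTTAGTTattac
Ly49s6: TGTTAATAAATAAAATAATTTTGAAaacct
Ly49s5: TGTTAATAAATAAAATAATTTTGAA

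The array files also list the transcripts that each probe is meant to match. The Ly49i3 probe lists 4 RefSeq transcripts, which are those of Ly49i3, Ly49s3, Ly49i4 and an unnamed gene. The first Ly49i4 probe lists 2, those of Ly49i4 and an unnamed gene, and the Klrc3 probe lists those of Klrc3 and Klrc2. Which of these near relatives supplied the signal is uncertain for these 3 probes.

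The 4 inhibitory Ly49 receptor genes were all lower in OLETF without overlap, and 3 of them have a probe that was dim on every OLETF array, where only a bound can be given. Values are log2 of the signal over the 75th percentile of the array's probes, so that −1 means a signal at 50% of that percentile, and levels are compared only within a probe. Ly49i3 (rn4 chromosome 4, chr4:168230213-168230272, from base 703 of its transcript) stood at −2.99, −3.73 and −3.00 in LETO 1 to 3. In the corresponding OLETF arrays it read −8.62, −8.00 and −8.64, none of them well above background. In units of intensity this is 133, 71.7 and 132 against 3.12, 3.47 and 3.07. The lowest LETO array was thus far above the highest OLETF array. The mean was −3.24 ± 0.43 in LETO and −8.42 ± 0.37 in OLETF (SD, n = 3 each). Measured against the dimmest signal that counts as well above background on each OLETF array, Ly49i3 was at least 7.66-fold lower in OLETF.

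Ly49i4 has 2 probes that lie side by side, with starts 60 bases apart in the transcript. The first (chr4:168023718-168023777) gave −1.48, −2.39 and −1.68 in LETO and −6.61, −6.50 and −6.22 in OLETF, where it was dim on all 3 arrays. By the same bound it was at least 19.2-fold lower in OLETF, the highest bound among the members. OLETF 3 entered this bound at its own value, which was dim but above that array's floor. The second (chr4:168023778-168023837) gave −2.26, −3.05 and −2.54 in LETO and −5.12, −5.57 and −5.64 in OLETF, where OLETF 1 and OLETF 3 were above background and OLETF 2 was not. Both probes were lower in OLETF without overlap. The second was 7.10-fold lower with its dim array counted at its value, which is below the bound of the first, the probe that resembles that of Ly49s3.

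Ly49i9 (chr4:167367430-167367489) was even among the LETO rats, at −4.68, −4.75 and −4.78. It read −8.29, −7.67 and −8.41 in OLETF, where it was dim on every array. The difference was at least 2.72-fold, a low bound, as the LETO signal itself lay between 35.5 and 41.2 intensity units.

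Ly49i2 (chr4:168339709-168339768) is the inhibitory gene that stayed measurable in all 6 rats. It read −2.12, −2.75 and −2.24 in LETO and −4.74, −5.13 and −4.40 in OLETF. The lowest LETO array thus lay above the highest OLETF array, with means of −2.37 ± 0.34 and −4.76 ± 0.37 (SD, n = 3 each), a 5.23-fold lower signal in OLETF. The value within the slide that holds both strains, OLETF 1 against the 3 LETO arrays, was −2.37.

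Klra2, a more distant relative in the same family, lies at the far end of the cluster (chr4:168892890-168892949). It gave −3.28, −3.30 and −3.46 in LETO and −5.15, −5.34 and −5.17 in OLETF. Both strains were tight, with SDs of 0.10 and 0.11, and the signal was 3.66-fold lower in OLETF.

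Ly49s6 is the stimulatory Ly49 receptor among the members (chr4:167934420-167934479), and it had the smallest difference of its family here. It stood at −2.78, −3.21 and −2.85 in LETO and at −4.62, −3.76 and −4.35 in OLETF. The strains did not overlap, OLETF 2 came nearest to LETO, and the mean signal was 2.46-fold lower in OLETF. Inhibitory and stimulatory Ly49 members therefore lay on the same side.

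**Figure D1:**
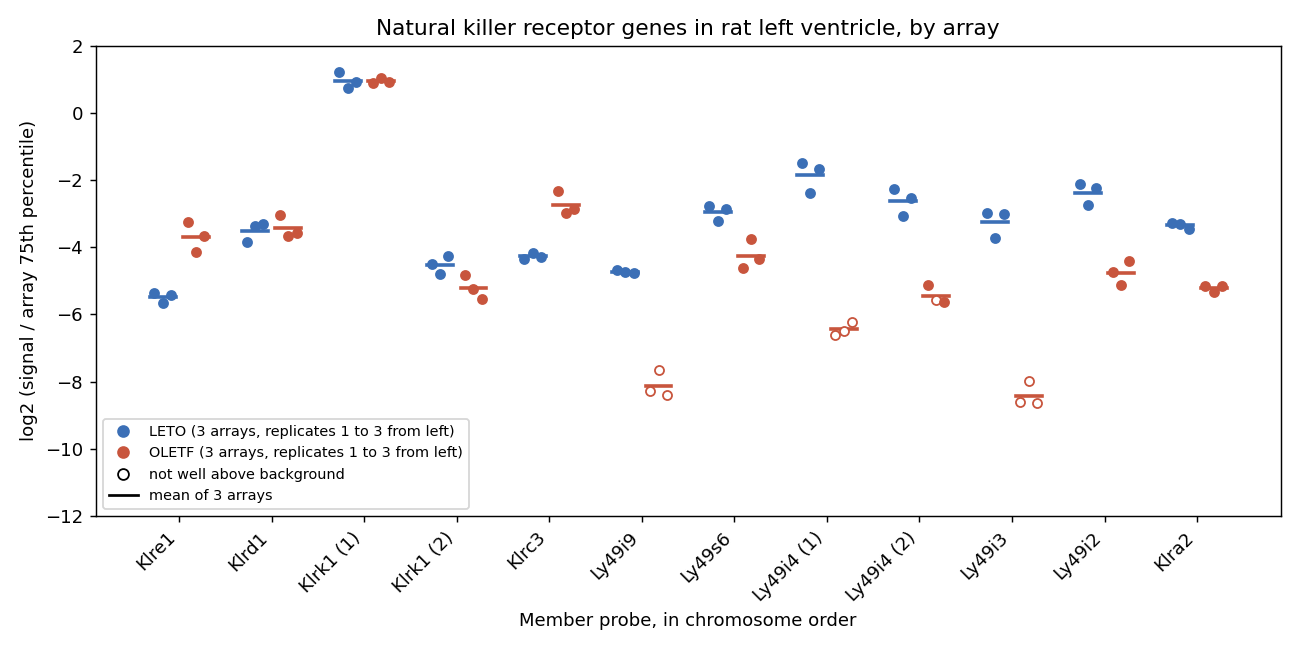
Log2 signal over the array's 75th percentile for the 12 member probes in chromosome order, with 1 point per array, a bar at the mean of 3 arrays and open points where the probe was not well above background; (1) and (2) are the 2 probes of a gene. The 7 probes of Ly49 genes and Klra2 lie lower in OLETF without overlap, Klre1 and Klrc3 lie higher, and Klrd1 and the first Klrk1 probe overlap.

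At the other end of the complex lie 4 members, of which Klre1 and Klrc3 were higher in OLETF and Klrd1 and Klrk1 were not. Klre1 (chr4:166862168-166863136, an interval longer than the probe) gave −5.35, −5.66 and −5.42 in LETO and −3.23, −4.13 and −3.67 in OLETF. OLETF 1 was the highest array and OLETF 2 the lowest of its strain, and neither reached the LETO range. The means were −5.48 ± 0.17 and −3.68 ± 0.45 (SD, n = 3 each), a 3.47-fold higher signal in OLETF. Within the slide that holds both strains the difference was 2.24 on the log2 scale, against 1.80 over all arrays.

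Klrc3, which encodes an NKG2 protein (chr4:166944458-166944517), gave −4.36, −4.16 and −4.29 in LETO and −2.33, −2.99 and −2.87 in OLETF. All OLETF arrays lay above all LETO arrays, and OLETF 1 was again the highest. The signal was 2.91-fold higher in OLETF, and the difference within the shared slide was 1.94 on the log2 scale, against 1.54 over all arrays.

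Klrd1, whose product CD94 is the partner chain of the NKG2 proteins (chr4:166878801-166878860), overlapped between the strains. It read −3.85, −3.36 and −3.30 in LETO and −3.04, −3.67 and −3.57 in OLETF. OLETF 1 was above every LETO array and the other two OLETF arrays lay within the LETO range. The means were −3.50 ± 0.30 and −3.43 ± 0.34 (SD, n = 3 each), a difference of 0.08 that is smaller than either SD, and the value within the shared slide was 0.46.

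Klrk1, the gene of the activating receptor NKG2D, was read differently by its 2 probes, whose starts lie 419 bases apart in the transcript. The first (chr4:166914784-166914843, from base 1054) lies beyond the stop codon, in the 3′ untranslated region. It gave 1.23, 0.75 and 0.93 in LETO and 0.91, 1.05 and 0.92 in OLETF, so the strains overlapped and the difference was −0.01. The second, which ends with the stop codon (chr4:166915203-166915262, from base 635) gave −4.49, −4.79 and −4.27 in LETO and −4.82, −5.24 and −5.54 in OLETF. There OLETF lay below LETO without overlap, but LETO 2 and OLETF 1 were only just apart, and the signal was 1.61-fold lower. The value of this probe within the shared slide was −0.31, against −0.68 over all arrays, and the probes of Klrk1 give no single direction.

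Over the 12 member probes, 2 were higher and 8 were lower in OLETF without overlap between the strains, and 2 overlapped. Among all 18816 genes tested, 8.92% were higher and 8.43% lower without overlap, or 17.4% in all. At least a 2-fold difference was seen for 2 member probes higher and 7 lower, where the share of all genes was 0.808% higher, 1.02% lower and 1.82% in either direction. Since the members were drawn from this comparison, nothing is read from these counts.

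The members also varied among the arrays of a strain, which the choice by strain did not use. LETO 2 was the lowest LETO array for 5 of the 7 Ly49 and Klra2 probes, and it was the lowest for 34.0% of all genes tested. These 7 probes are not independent. Both Ly49i4 probes and the Ly49i3 probe, which lists the Ly49i4 transcript, are among the 5. OLETF 1 was the highest OLETF array for Klre1, Klrd1 and Klrc3, and for all 7 probes of the Klrc, Klrd, Klre and Klri genes, which also include Klrc1, Klrc2, Klri1 and Klri2. It was the highest for 34.2% of all genes. It was also the only OLETF array on the slide shared with LETO, so rat and slide cannot be told apart for it. The 7 probes of the Klrc, Klrd, Klre and Klri genes are not independent either, as the Klrc3 probe lists the Klrc2 transcript. Their count depends on how the group was drawn, which left out the neighbours Klrk1 and Klrh1. OLETF 2 was the highest OLETF array for the first Klrk1 probe and for Klrh1, which was dim on all 6 arrays. For the second Klrk1 probe it was OLETF 1. Klrc1 and Klri2 were above background in only 2 of 3 OLETF arrays and in no LETO array. OLETF 1 was also the highest for 10 of the 20 tested natural killer and cytotoxic markers, and LETO 2 was the lowest for 9 of them, and the part of these markers in the order of the arrays was not tested.

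By position the 12 probes run over 2031 kb of chromosome 4, from 166862168 to 168892949 in rn4. The interval holds 36 probes with 32 gene names, and 10 genes that are not members were tested there. Of these, 0 passed limma's test across all genes at an adjusted p below 0.05, where 2.55% of all genes tested passed, and 6 had an unadjusted p below 0.05. The members were drawn from the same comparison, so nothing is read from this 0. The median log2 difference of these 10 genes was −0.09, and that of all genes tested was −0.01. Their values ran from −2.92 for Ly49i6 to 1.07 for Klrc2. ENSRNOT00000029624 differed by −1.58 (limma adjusted p = 0.0892) and was lower in OLETF without overlap, with 2 of 3 OLETF arrays above background.

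Beside Klrc3, Klrc2, which encodes an activating NKG2 protein, gave −6.80, −5.85 and −6.04 in LETO and −4.73, −5.36 and −5.37 in OLETF. It was dim on all LETO arrays and above background on all OLETF arrays, at least 1.74-fold higher in OLETF, and its difference did not pass (limma adjusted p = 0.13). Klrc1, the inhibitory NKG2 gene, was above background in 2 of 3 OLETF arrays and no LETO array and was not tested. Klri1, a partner of Klre1, was well above background in all 6 rats and overlapped, with a difference of 0.53 (limma adjusted p = 0.377), and its counterpart Klri2 was above background in 2 OLETF arrays alone.

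Among the Ly49 neighbours, Ly49i6 stood at −4.04, −5.08 and −4.84 in LETO and at −8.58, −7.92 and −6.21 in OLETF, where OLETF 3 alone was above background. The strains did not overlap, and the difference of −2.92 missed the threshold (limma adjusted p = 0.0557). Ly49s5, whose probe resembles that of Ly49s6, differed by −0.71 (adjusted p = 0.156), and Klra22 by −0.66 (adjusted p = 0.167), both without overlap. Ly49si1 and Klra17 overlapped, at 0.20 (adjusted p = 0.845) and −0.24 (adjusted p = 0.788). Not every Ly49 gene that could be measured in all 6 rats was therefore lower in OLETF without overlap.

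**Figure D2:**
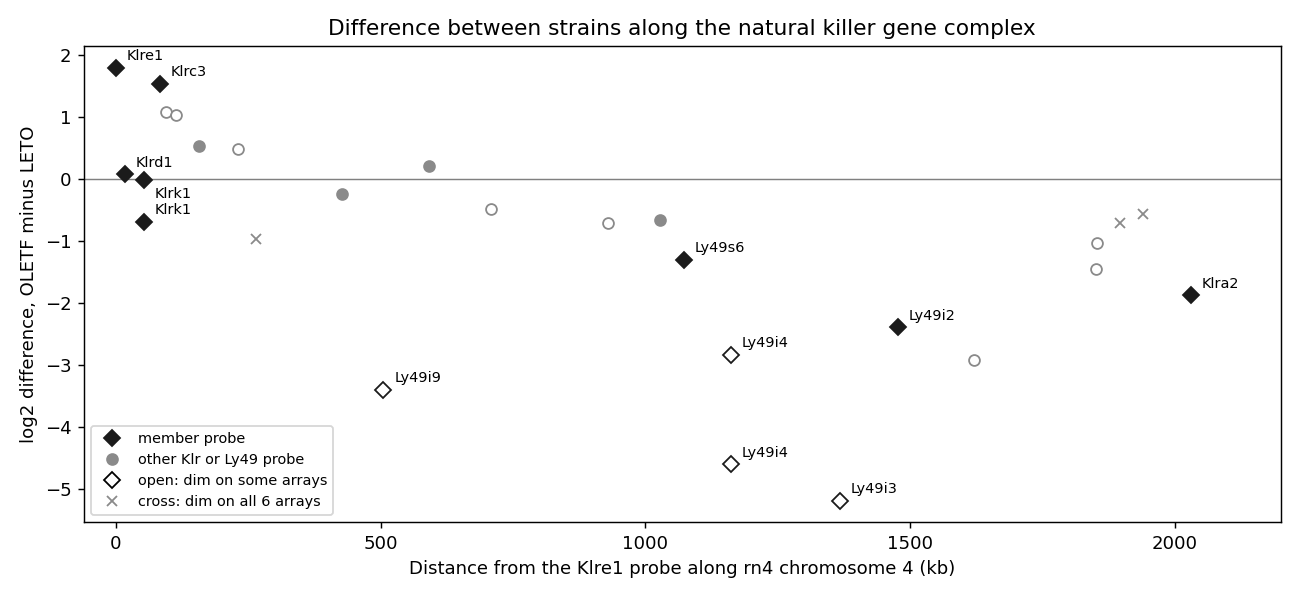
Log2 difference, OLETF minus LETO, of the member probes (labelled diamonds) and of other Klr and Ly49 probes (grey) against the distance in kb from the Klre1 probe along rn4 chromosome 4; open symbols were dim on some arrays and crosses on all 6. Klre1 and Klrc3 stand highest at the left end, with Klrc2 and Klrc1 beside them, and the lowest points are those of Ly49i3 and Ly49i4 in the Ly49 cluster, which were dim in OLETF.

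The wider list of complex genes that are not members held 37 gene names, of which 21 were tested. Of these, 0 rose, 1 fell and 20 did not pass, with a median difference of −0.01, where 1.50% of all genes tested rose and 1.05% fell. The gene that fell was Ly49s3, a stimulatory receptor gene without a position in the rn4 coordinates of the files. It read −1.38, −2.20 and −1.56 in LETO and −7.12, −5.96 and −6.21 in OLETF, with 1 of 3 OLETF arrays above background. The strains did not overlap, and the fitted difference was −4.72 ± 0.33 (SE, limma adjusted p = 0.000875). With slide as a block the value was −5.41 (limma adjusted p = 0.00479), and with normexp and quantile normalization it was −2.36 (adjusted p = 0.000488). These sizes rest on OLETF signals that were mostly not above background. Its probe shares the long run printed above with the first Ly49i4 probe, and the Ly49i3 probe lists its transcript. The Ly49s3 value is therefore no measurement independent of the members, and nothing is supported with it. The 4 genes of the list with the highest mean signal, Gabarapl1, Clec2dl1, Clec1a and Clec12a, differed by −0.01, 0.00, 0.07 and −0.10, with limma adjusted p from 0.911 to 0.998.

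The signalling partners of the receptors were measured in the same rats. Of 18 tested adaptor and signalling genes, 0 passed (limma, 5 at an unadjusted p below 0.05), and the median was −0.14. Tyrobp, the adaptor of the stimulatory Ly49 receptors, differed by 0.01 ± 0.10 (SE, limma adjusted p = 0.986), and Grb2, a general signalling adaptor, by 0.01 ± 0.08 (adjusted p = 0.994). Ptpn6, the phosphatase of the inhibitory receptors, and Hcst, the adaptor of NKG2D, were outside the rule for named genes. Their values were 0.00 (adjusted p = 0.995) and −0.19 (adjusted p = 0.594). In the list 13 values were negative and 5 positive. Sh2d1a, Lck and Fyn were lower in OLETF without overlap, as were 8.43% of all genes, and 0 were higher. They differed by −1.95, −0.62 and −0.42 and did not pass (limma adjusted p = 0.104, 0.079 and 0.1). Sh2d1a was above background in 2 of 3 OLETF arrays.

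Several ligands of the receptors were higher in OLETF. Of 33 tested ligand genes, most of them class I genes, 8 rose and 0 fell, with a median of 0.59, and 29 had a positive value. Of all 18816 genes tested, 1.50% rose, 1.05% fell and 8949 had a positive value. Raet1l, a ligand of NKG2D, gave −4.68, −5.27 and −5.27 in LETO and −3.90, −4.04 and −3.82 in OLETF. All OLETF arrays lay above all LETO arrays on this probe, the brightest of the gene, which rose by 1.15 ± 0.17 (SE, limma adjusted p = 0.0176). The mean of all tested Raet1l probes gave 0.60 and was not called (adjusted p = 0.0768), and normexp with quantile normalization gave 0.45 (adjusted p = 0.0221). The class I genes RT1-CE15, RT1-CE10 and RT1-CE5 rose by 0.72, 0.67 and 0.67 (adjusted p = 0.0126, 0.025 and 0.0387), and class I genes are near-identical relatives whose probes may read one another. With slide as a block 0 of the 8 stayed called, although the values of Raet1l and RT1-CE15 were 1.17 and 0.56. Without LETO 2, LETO 3, OLETF 2 or OLETF 3, 0 of the 8 stayed called either, and without OLETF 1, 3 did.

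Markers of natural killer and other cytotoxic cells were tested for 20 of 29 measured genes, and 3 fell, 0 rose and 17 did not pass, with a median of −0.11. Of all genes tested, 1.05% fell. In the list 13 values were negative and 7 positive. Without overlap 7 were lower and 1 was higher, where 8.43% and 8.92% of all genes were. The higher one was Gzmc, at 0.69, which did not pass (limma adjusted p = 0.0923). Gzmk, a granzyme, fell by 1.27 ± 0.23 (SE, limma adjusted p = 0.0382). Gzmm, another granzyme, fell by 1.15 ± 0.14 (adjusted p = 0.00802), and the granule membrane gene Nkg7 fell by 0.84 ± 0.13 (adjusted p = 0.022). The sum of the list's signal ran from 6.85 to 6.95 in LETO and from 6.67 to 6.96 in OLETF on the log2 scale. This sum was nearly that of the Tbx21 probe alone. Tbx21 ran from 6.72 to 6.84 in LETO and from 6.57 to 6.88 in OLETF. Ccl5, the next brightest gene of the list, had means of 2.31 in LETO and 2.06 in OLETF. The sum is therefore no measure of the level of the other markers. Ncr1, which encodes a defining receptor of natural killer cells, was dim, as were Ncr3, Cd226, Cd96, Crtam, Gzmf, Ifng, Il18rap and S1pr5. With slide as a block 0 of the 3 stayed called, at −1.11 for Gzmk, −0.98 for Gzmm and −0.80 for Nkg7. Without LETO 2, OLETF 1, OLETF 2 or OLETF 3 only Gzmm stayed called, and without LETO 3 Gzmk was lost. Normexp with quantile normalization gave −0.82 for Gzmk (adjusted p = 0.0358). How far these markers account for the values of the members was not tested.

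T cell markers were tested for 12 of 17 genes, with Cd3e, Cd5, Cd28, Icos and Trat1 dim. Of the 12, 1 rose, 2 fell and 9 did not pass, where 1.50% of all genes tested rose and 1.05% fell. Their median was −0.11, with 5 values positive and 7 negative. Cd3g, which encodes the CD3 gamma chain, fell by 0.96 (limma adjusted p = 0.0178), Il7r, a cytokine receptor, fell by 0.67 (adjusted p = 0.0212), and Foxp3, the factor of regulatory T cells, rose by 0.76 (adjusted p = 0.00623). The summed level ran from 1.20 to 1.36 in LETO and from 1.02 to 1.18 in OLETF. With slide as a block 0 of the 3 stayed called, at −0.70 for Cd3g, −0.53 for Il7r and 0.65 for Foxp3. Cd3g was not called without LETO 1, LETO 2, OLETF 2 or OLETF 3, nor Il7r without LETO 2, LETO 3, OLETF 2 or OLETF 3. Il7r was −0.24 with normexp and quantile normalization (adjusted p = 0.273). It was above background in 2 of 3 OLETF arrays and passed the filter on low signal through LETO alone. The part of these markers in the members' values was not tested.

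Cytokines that act on natural killer cells and their receptors held 11 tested genes, of which the interferon receptor gene Ifnar1 rose by 0.84 (limma adjusted p = 0.0144) and 10 did not pass. Of all genes tested, 1.50% rose. Ifnar1 was not called with slide as a block, nor without LETO 2, LETO 3, OLETF 2 or OLETF 3. For B cells 3 of 9 markers were tested, with 0 called and 2 at an unadjusted p below 0.05, and Ms4a1 and Cd79b were among the dim genes. For myeloid cells 13 of 17 were tested, with 0 called and 1 at an unadjusted p below 0.05. Of 4 tested red blood cell genes, the anion exchanger gene Slc4a1 rose by 3.19 (adjusted p = 0.00589). It was not called within the shared slide, at 2.88 (adjusted p = 0.116). The other 3, globin genes, had negative values that did not pass, the list median was −1.45, and the list's summed level ran from 2.75 to 4.78 in LETO and from 2.82 to 3.09 in OLETF.

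**Figure D3:**
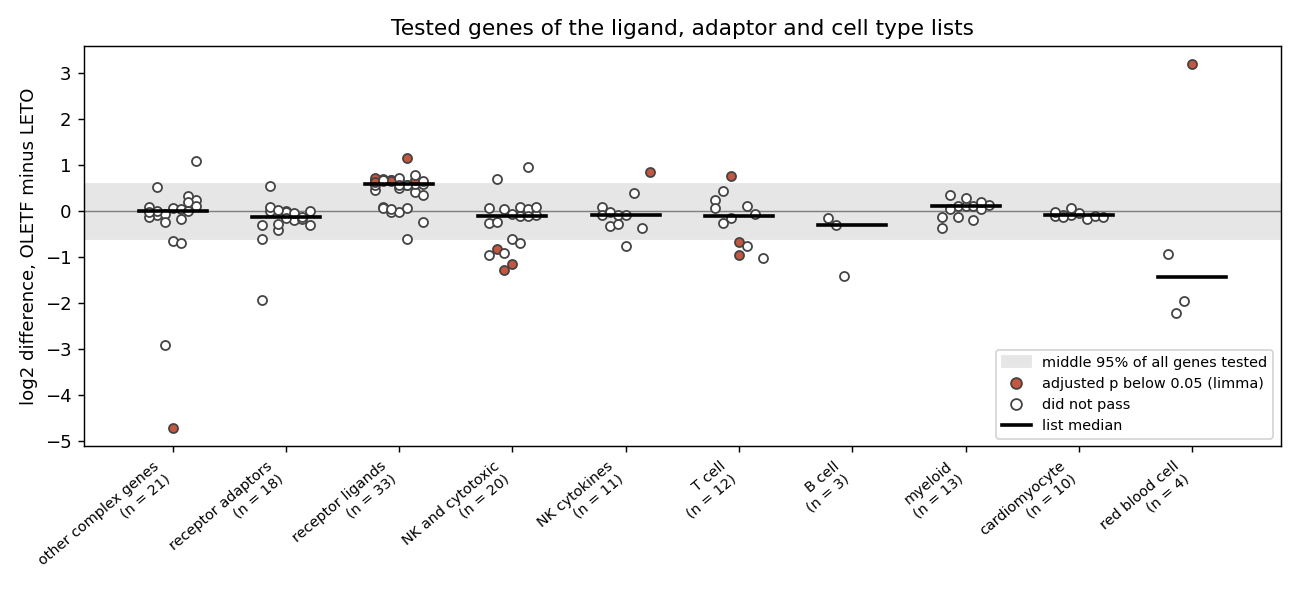
Log2 difference, OLETF minus LETO, of every tested gene of the lists, with 1 point per gene, filled where limma's adjusted p was below 0.05, a black bar at each list's median and a grey band that holds the middle 95% of all genes tested. The ligand list sits highest by its median of 0.59 with 8 filled points, the adaptor list has none, and Ly49s3 at −4.72 is the lowest filled point.

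The upstream sequences of the members were compared with each other as well, in RefSeq windows on the GRCr8 build of 300 bases, 250 before and 50 after each transcript start, and 8 of the 10 members had such a window. Over at least 100 aligned bases, the windows of Ly49i4 and Ly49i2 were 92.8% identical (180 aligned bases), those of Ly49s6 and Ly49i4 85.3% (143 bases) and those of Ly49s6 and Ly49i2 83.3% (263 bases). Klra2 was further from these 3, at 72.7% to 76.0%. The only other pair with an alignment of this length was Klrc3 and Ly49i4, at 63.3% over 109 bases. The inhibitory Ly49i4 and Ly49i2 and the stimulatory Ly49s6 were thus alike over the aligned parts of their windows. For Ly49s6 and Ly49i4 that part was 143 of 300 bases. The windows of Klre1, Klrk1 and the inhibitory Ly49i3 aligned with none of the others at this length. The identity that unrelated windows reach was not measured.

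The genes with the most similar pattern over the 6 arrays were found for each member probe above background on all arrays, by the root mean square difference of log2 values centred on each gene's mean, among 18057 genes. Ogn, a small matrix proteoglycan, was nearest to both Klre1 (0.22) and Klrc3 (0.12), followed by LOC100366030 and the metallothionein gene Mt1a for Klre1 and by Mns1 and Pxmp4 for Klrc3. Nearest to Ly49s6 were Slc26a11 (0.11), Lce1f and LOC690120. Nearest to Ly49i2 were ENSRNOT00000035353 (0.25), Tdrd1 and Hes1, and nearest to Klra2 were Amhr2 (0.15), Hes1 and Btla. The nearest genes of the remaining probes were ENSRNOT00000001279, Oxr1 and RGD1559683 for Klrd1, Mrpl52, Fam123b and Gyg1 for the first probe of Klrk1, and Panx2, Aldh1a2 and Tbc1d10c for the second. This likeness is a description of these 6 arrays.

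The size of the members' differences depended on how the background was treated. With normexp background correction and an offset of 50, followed by quantile normalization, every member difference of at least 2-fold became smaller, and 4 of the 9 probes stayed at or above 2-fold. Klre1 came to 0.71 and Klrc3 to 0.89 on the log2 scale, against 1.80 and 1.54. Ly49i3 came to −1.60, Ly49i9 to −0.69, Ly49i2 to −1.30, Klra2 to −0.85 and Ly49s6 to −0.58, and the probes of Ly49i4 to −1.94 and −1.33. The offset is added to every signal, so it weighs most on dim probes such as these. No direction among these 9 probes changed, there or with slide as a block or with any 1 array left out.

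**Figure D4:**
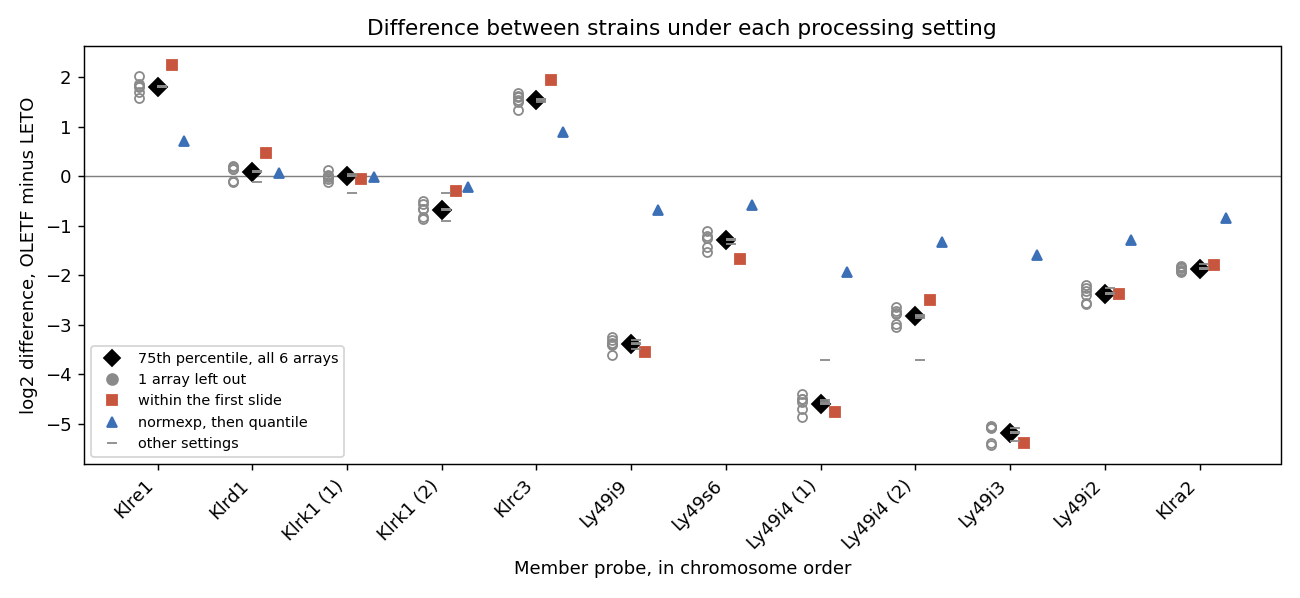
Log2 difference, OLETF minus LETO, of each member probe under all processing settings: the reported value (black diamond), each array left out in turn (open circles), the value within the slide that holds both strains (squares), normexp then quantile normalization (triangles) and other settings (short lines). Klre1 ranges from 0.71 to 2.24 and Ly49i3 from −5.42 to −1.60, and the triangle is nearest to zero for the 9 probes that differ by at least 2-fold.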

How the data were processed

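Per the file headers, the scanner files hold linear intensity from Agilent Feature Extraction 10.7.3.1 with the background already subtracted; the submitters' processing notes name version 9.1. Strain labels gave the groups, and titles gave the replicate numbers, which LETO 2 contradicts in another label. The deposited value table, also intensity, is the same signal divided by a constant per array, not log2 and not centred, with medians of 0.163, 0.154 and 0.158 in LETO and 0.154, 0.157 and 0.159 in OLETF.

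Control spots and 260 to 356 outlier spots per array were left out, spots of a probe were averaged as log2, and the array's 75th percentile over probes was subtracted. The brightest tested probe stood for a gene, and every member probe is given. limma 3.58.1 in R 4.3.3 (lmFit, eBayes) tested 18816 genes with Benjamini-Hochberg adjustment at 0.05. Of genes simulated at 2-fold in OLETF against LETO, 72% were recovered. The simulation drew independent normal noise with each gene's own spread and took every probe as above background. It held no slide effect, so the share recovered does not cover the partial mixing of slide and strain. Bounds set each dim array to the lowest signal well above background on that array, or to its own value where that is higher. Any such bound rests on the dim strain's floor. A dim probe can lie above that floor, so each value given as a bound is approximate.

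The members and gene lists were chosen with earlier results of these data known. Named are all members; called genes of each list (up to 8 in the complex, up to 4 elsewhere), or the brightest 2; the brightest 4 of the complex; and the nearest 3 by pattern. Other neighbours in the complex, Hcst, Ptpn6, Sh2d1a, Lck, Fyn, Gzmc and Tbx21 were named after their values were seen. Probe positions are rn4, from the files. Sequences were compared with biopython 1.88 in Python 3.11.15; upstream windows from RefSeq were aligned end to end with free end gaps. An item of the marker lists is not reported here. Single outlying values were not tested with 3 arrays per strain.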

Additional observations from a re-analysis of the deposited data

How the results depend on the processing

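Of 224 member values over the alternatives, 205 moved by less than the spread between replicates, 19 moved by more, and none of the 9 probes of at least 2-fold changed sign. Many of the 205 could not move. Filters on dim probes, trend and robust moderation and a replicate block leave a member difference as it is. A mean over probes changes only Klrk1 and Ly49i4. Klrd1 and the first Klrk1 probe, near 0, changed sign within ranges of −0.13 to 0.46 and −0.35 to 0.12. The 283 genes higher, 197 lower, 17 called list genes and 9 member probes of at least 2-fold became 149, 91, 4 and 9 without a filter on dim probes, and 875, 825, 41 and 9 with array weights. Slide as a block gave 52, 53 and 1, and that 1 was Ly49s3. Trend and robust moderation gave 30 list genes, normexp 4 member probes, and a filter on all 6 arrays 5, since it leaves out dim probes. A replicate block gave 166 higher, 135 lower and 10 list genes; the numbers do not pair the rats (correlations −0.09, −0.14 and −0.01). Leaving out 1 array gave 110 to 374 higher, 87 to 241 lower and 5 to 28 list genes, and 9 member probes each time. Higher calls fell to 165 without LETO 2, 179 without LETO 3, 178 without OLETF 1, 110 without OLETF 2 and 128 without OLETF 3. Lower calls fell to 116 without LETO 2, 89 without OLETF 2 and 87 without OLETF 3. List genes rose to 28 without LETO 1 and fell to 6, 9, 10, 5 and 5 without LETO 2, LETO 3, OLETF 1, OLETF 2 and OLETF 3. The cause was not tested. The 75th percentile over spots, an alternative chosen after seeing the data, gave 262, 188, 14 and 9. Dim signal limits Ly49i9, Ly49i3 and the first Ly49i4 probe in OLETF to bounds.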
